A study of Mus musculus with 12 samples.

Results

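Sites of H3K27me3 (histone H3 trimethylated at lysine 27) were mapped by ChIP-seq in iMEF cells, an immortalized line of mouse embryo fibroblasts, and 3976 of the 96090 sites listed on chromosomes 1 to 19 (4.14%) lay at promoters of non-coding genes with no protein-coding promoter close by. These sites were selected by their position and width alone. A site counted if it was under 10 kb wide, reached into the window of 1 kb on either side of a transcription start site (TSS) of a gene that GENCODE does not class as protein-coding, and lay over 3 kb from the TSS of every protein-coding gene. The width, the distance to a non-coding TSS and the distance to protein-coding TSSs were therefore fixed by the selection and are given as a description. Of 5649 sites within 1 kb of a non-coding TSS, 1434 lay within 3 kb of a protein-coding TSS, and 239 that met every other condition were 10 kb wide or more.

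The study followed chromatin after rapid loss of ASH2L, a core subunit shared by the KMT2 (COMPASS) methyltransferases of histone H3 lysine 4. The cells, a clone termed NG3, carried a lentiviral human ASH2L fused to a mutated FKBP domain, and the endogenous Ash2l had been inactivated in all groups, untreated cells included, by tamoxifen-induced excision of an exon. The small molecule dTAG-13 (a PROTAC, which brings the tagged protein to a ubiquitin ligase) then induced its degradation. The 8 H3K27me3 libraries comprised 2 from untreated cells and 2 from each of the dTAG treatments of 16 h, 24 h and 48 h, and there were 4 input libraries of sheared chromatin without immunoprecipitation, 2 of untreated cells and 2 of cells treated for 48 h. As a clonal line grown in culture, the cells stand for 1 clone and not for a tissue. The list used here gives a chromosome, a start and an end for each site found across all samples, and no value for any library. For that reason no site could be compared between treatment times, no replicate error could be given, and the depth behind a site is unknown. The list also holds no expression values with which the cell type could be checked.

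H3K27me3 is placed by Polycomb repressive complex 2 (PRC2) and is a mark of silenced chromatin, best known at the genes of developmental regulators that a differentiated cell does not use. In mammals PRC2 is found preferentially at CpG islands, stretches of DNA that have kept their CpG dinucleotides and are mostly free of DNA methylation. Non-coding genes comprise long intergenic and antisense RNAs, small RNAs such as microRNAs, snRNAs and snoRNAs, and pseudogenes, which are copies of genes that have lost their coding function. For pseudogenes and small RNAs the annotated start is the end of the annotated copy or of the microRNA hairpin, not a mapped start of transcription.

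Sequence from 8 sites is shown because the sites differed most visibly in their CpG content. The first 6 are the 300 bp richest in CpG within sites that overlapped a CpG island, at 4 microRNA genes, an antisense RNA gene and a pseudogene. The last 2 are the central 300 bp of the median-width sites of the lincRNA and the snoRNA classes, which had no island. All are on the plus strand of GRCm38.p6 (RefSeq assembly), in lower case with every CpG in capitals. The number of CpGs in 300 bp is given after the position.
Mir9-1, chr3:88215255-88215554, 28 CpGs: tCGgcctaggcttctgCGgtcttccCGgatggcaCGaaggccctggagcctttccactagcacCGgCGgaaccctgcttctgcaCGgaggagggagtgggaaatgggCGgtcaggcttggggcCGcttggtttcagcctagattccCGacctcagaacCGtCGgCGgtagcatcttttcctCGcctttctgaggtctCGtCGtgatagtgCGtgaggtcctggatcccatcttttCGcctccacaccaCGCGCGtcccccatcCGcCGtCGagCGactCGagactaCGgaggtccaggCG
Mir124a-2, chr3:17794639-17794938, 22 CpGs: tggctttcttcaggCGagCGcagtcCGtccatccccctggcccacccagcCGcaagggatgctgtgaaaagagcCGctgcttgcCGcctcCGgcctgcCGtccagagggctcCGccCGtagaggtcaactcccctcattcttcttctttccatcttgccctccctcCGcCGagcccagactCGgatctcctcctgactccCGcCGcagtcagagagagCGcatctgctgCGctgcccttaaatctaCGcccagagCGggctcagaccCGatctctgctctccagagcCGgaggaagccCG
Mir137, chr3:118433660-118433959, 24 CpGs: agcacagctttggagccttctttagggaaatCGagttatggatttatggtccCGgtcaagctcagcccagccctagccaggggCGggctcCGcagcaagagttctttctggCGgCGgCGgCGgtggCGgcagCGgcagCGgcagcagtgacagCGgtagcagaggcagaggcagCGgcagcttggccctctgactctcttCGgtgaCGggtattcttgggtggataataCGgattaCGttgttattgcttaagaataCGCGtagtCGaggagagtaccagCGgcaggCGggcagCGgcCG
Mir129-2, chr2:94241295-94241594, 38 CpGs: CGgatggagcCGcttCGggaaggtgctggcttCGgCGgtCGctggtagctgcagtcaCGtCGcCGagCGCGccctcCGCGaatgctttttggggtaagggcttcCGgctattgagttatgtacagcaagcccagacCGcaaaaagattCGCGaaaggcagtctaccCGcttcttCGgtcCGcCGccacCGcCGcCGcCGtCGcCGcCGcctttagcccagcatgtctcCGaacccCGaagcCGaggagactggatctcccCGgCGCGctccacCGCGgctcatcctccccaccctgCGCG
Gm11837, chr4:14930444-14930743, 63 CpGs: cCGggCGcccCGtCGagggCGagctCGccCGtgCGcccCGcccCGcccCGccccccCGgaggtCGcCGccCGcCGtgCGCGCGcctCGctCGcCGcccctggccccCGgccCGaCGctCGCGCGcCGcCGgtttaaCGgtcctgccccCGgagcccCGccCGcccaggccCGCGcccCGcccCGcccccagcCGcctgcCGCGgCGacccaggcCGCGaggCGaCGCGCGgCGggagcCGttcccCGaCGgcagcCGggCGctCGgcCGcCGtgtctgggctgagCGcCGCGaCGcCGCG
Smarca5-ps, chr4:145464129-145464428, 48 CpGs: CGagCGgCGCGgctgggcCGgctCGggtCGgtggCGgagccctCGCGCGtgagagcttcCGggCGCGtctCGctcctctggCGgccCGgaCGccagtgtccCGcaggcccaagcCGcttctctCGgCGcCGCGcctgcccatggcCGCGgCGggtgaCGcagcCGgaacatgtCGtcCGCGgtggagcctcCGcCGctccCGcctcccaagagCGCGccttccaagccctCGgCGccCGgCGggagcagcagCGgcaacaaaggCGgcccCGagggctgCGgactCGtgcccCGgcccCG
Gm5118, chr8:87092920-87093219, 3 CpGs: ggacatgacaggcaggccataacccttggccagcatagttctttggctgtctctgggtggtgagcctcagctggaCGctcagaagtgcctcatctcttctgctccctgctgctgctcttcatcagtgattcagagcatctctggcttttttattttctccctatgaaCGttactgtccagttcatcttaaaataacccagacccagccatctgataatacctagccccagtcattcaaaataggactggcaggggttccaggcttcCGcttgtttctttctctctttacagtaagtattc
Gm22386, chr17:82231480-82231779, 2 CpGs: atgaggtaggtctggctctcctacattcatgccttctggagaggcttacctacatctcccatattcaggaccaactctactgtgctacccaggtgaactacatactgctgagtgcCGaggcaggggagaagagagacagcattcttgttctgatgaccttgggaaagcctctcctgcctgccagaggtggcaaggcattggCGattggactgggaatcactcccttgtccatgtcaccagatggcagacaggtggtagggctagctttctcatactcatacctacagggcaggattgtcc
Since the first 6 windows were picked for their CpGs and the last 2 by position, the counts illustrate the 2 kinds of sequence and do not compare them.

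The microRNAs at these sites can also be read as sequences. GENCODE annotates 162 microRNA genes with a selected site within 1 kb of the hairpin, of which 75 have a Mir symbol, and 71 were matched by symbol to RefSeq, giving 118 mature sequences. The following were chosen after their sites were seen, because they are well known from neurons, from imprinted loci or share a seed. Each is written 5′ to 3′ with the seed (bases 2 to 8) in capitals.
miR-9-5p (Mir9-1 and Mir9-2): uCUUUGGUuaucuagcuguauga
miR-137-3p (Mir137): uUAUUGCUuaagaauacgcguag
miR-129-5p (Mir129-1 and Mir129-2): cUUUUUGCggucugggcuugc
miR-132-3p (Mir132): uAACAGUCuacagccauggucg
miR-212-3p (Mir212): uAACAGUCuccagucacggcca
miR-128-3p (Mir128-2): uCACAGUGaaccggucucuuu
miR-138-5p (Mir138-1): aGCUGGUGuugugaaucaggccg
miR-134-5p (Mir134): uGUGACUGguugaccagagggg
miR-299a-5p (Mir299a): uGGUUUACcgucccacauacau
miR-675-5p (Mir675): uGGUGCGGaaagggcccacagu
Mir9-1 and Mir9-2 encode the same mature miR-9-5p, and Mir129-1 and Mir129-2 the same miR-129-5p. The mature miR-132-3p and miR-212-3p differ beyond a common seed, AACAGUC, and their genes lie side by side at 1 site.

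Sites at non-coding promoters were intermediate in width. Their median width was 1019.5 bp (95% interval of the median 958 to 1077, quartiles 450 and 2619.5), compared with 1931 bp for the 6853 sites under 10 kb at protein-coding promoters, 612 bp for the 77406 sites under 10 kb away from all promoters, and 687 bp for all sites. A wide site reaches a window more easily than a narrow one, so part of this order follows from the selection. The sites together covered 7.65 Mb, 4.57% of all bases in sites. Among them 413 (10.4%) were at least 5 kb wide and 62 had the smallest width, 200 bp.

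The 3976 sites touched the windows of 3264 non-coding genes, and 3745 of them touched a single gene. By gene class, 1710 sites lay at pseudogenes, 1092 at lincRNA genes, 570 at small RNA genes, 294 at antisense genes, 259 at TEC genes (loci for which GENCODE awaits experimental evidence), 159 at other long non-coding genes and 28 at immune receptor segments, and a site at genes of more than 1 class was counted in each. Immune receptor segments are parts of antibody and T cell receptor genes, and the selection took them in because their gene type is not protein-coding. Of single gene types, processed pseudogenes (copies made by reverse transcription of an mRNA) held 1359 sites, miRNA genes 184, snRNA genes 160, snoRNA genes 112 and rRNA genes 47. Pseudogenes, U6-like snRNA genes and other copies of multigene families share sequence with their relatives, so that the placement of short reads on them is uncertain, and the mapping filter was not stated in enough detail to say how such reads were treated. Median repeat-masked sequence was 16.2% of a site, against 15.1% over all sites, and at least 50% was masked in 7.14% of the selected sites and in 9.98% of sites away from promoters.

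To see how often a non-coding promoter carried a site at all, the count was turned around to genes. Of 24620 non-coding genes whose TSSs all lay over 4 kb from protein-coding TSSs, 3679 had a site of any width within 1 kb of a TSS (14.9%), compared with 26.9% of 20807 protein-coding genes. Protein-coding genes had on average 4.34 annotated TSSs and the tested non-coding genes 1.14, and more TSSs give more windows. With the 5′ end of each gene as its only TSS, an alternative added after the data were seen, the shares were 14.7% and 24.2% (23.6 to 24.8). Among the 7 pooled classes the share, with all TSSs, was highest in lincRNA genes, with 999 of 4577 (21.8%, 95% Wilson interval 20.7 to 23.0). Antisense genes followed with 18.6% (16.7 to 20.8) and other long non-coding genes with 18.3% (15.4 to 21.5), whose intervals overlap. Pseudogenes had a site in 13.9% (13.2 to 14.6) and small RNA genes in 12.7% (11.7 to 13.7), also overlapping. TEC genes (9.76%, 8.67 to 11.0) and immune receptor segments (6.09%, 4.30 to 8.55) were lowest. Some single gene types stood above the pooled lincRNA class, with 23.4% (19.3 to 28.1) of 354 processed transcript genes and 22.0% (16.7 to 28.4) of 191 transcribed unprocessed pseudogenes. Within the small RNAs, miRNA genes stood at 14.1% (12.4 to 16.0) and snoRNA genes at 8.14% (6.69 to 9.87). These intervals cover counting error only and treat genes as independent, which neighbouring genes are not.

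**Figure D1:**
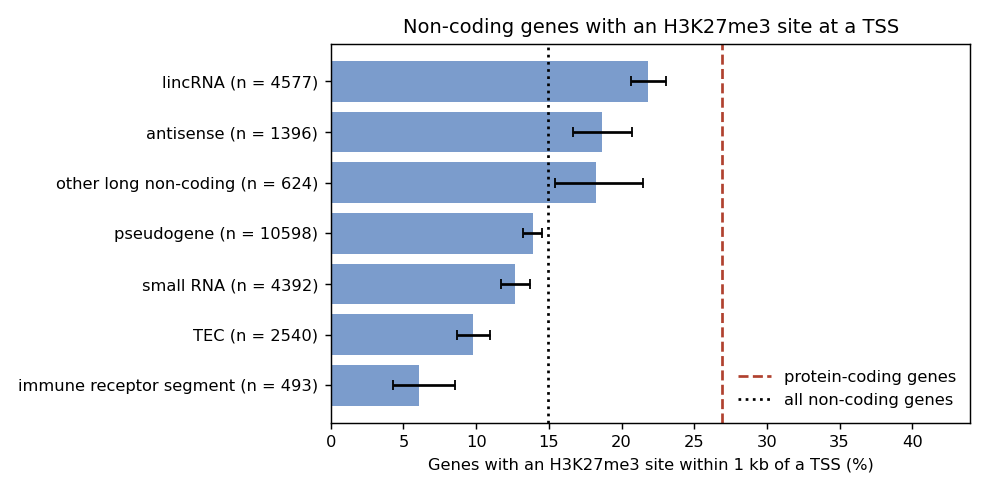
Share of non-coding genes (percent, horizontal axis) with an H3K27me3 site within 1 kb of a TSS, by gene class, with the number of genes tested; error bars are 95% Wilson intervals, the dotted line marks all non-coding genes (14.9%) and the dashed line all protein-coding genes (26.9%). Every class lies to the left of the protein-coding line, which rests on more TSSs per gene (4.34 against 1.14), from 21.8% for lincRNA genes to 6.09% for immune receptor segments.

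Pooled over all classes, non-coding genes with a CpG island at the promoter had a site more often than those without, which was not seen in protein-coding genes. Of 752 tested non-coding genes with an island within 1 kb of a TSS, 228 had a site (30.3%), against 14.5% of those without. Not every gene type followed this order, as 0 of 22 snoRNA genes with an island had a site (8.30% without) and 20.4% of 54 processed transcript genes (24.0% without), and neither did rRNA and sense intronic genes, with 2 and 1 island genes. In protein-coding genes the shares were 26.4% with an island and 27.7% without. Few non-coding genes had an island, 3.05% of those tested compared with 59.2% of protein-coding genes.

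The sites were then set against the chromatin around them. Averaged over all 27947 non-coding TSSs of the tested genes, whether or not they had a site, 9.22% of the bases within 1 kb were covered by a site, and 8.42% of the bases at 5 to 10 kb on either side, a ratio of 1.09. Pseudogenes showed a ratio of 1.18 (7.65% against 6.49%), antisense genes 1.11 and lincRNA genes 1.09 (14.0% against 12.8%). Small RNA genes (7.20% against 7.74%, ratio 0.931) and TEC genes (5.81% against 6.36%, ratio 0.913) were covered less at the start than in their surroundings. Hence the higher share of lincRNA genes with a site was accompanied by higher coverage of their surroundings. Non-coding TSSs with a CpG island reached 22.7% within 1 kb and 17.9% in the flanks (ratio 1.27), and protein-coding TSSs 12.8% and 9.98% (ratio 1.28). The protein-coding flanks were unequal, with 11.96% upstream and 8.01% downstream, so that the ratio was 1.07 to the upstream and 1.60 to the downstream flank. Counted per TSS in this way, lincRNA genes (14.0%) were covered more than protein-coding genes (12.8%), the reverse of the order by gene. Across chromosomes 1 to 19 as a whole, sites covered 6.99% of the bases.

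**Figure D2:**
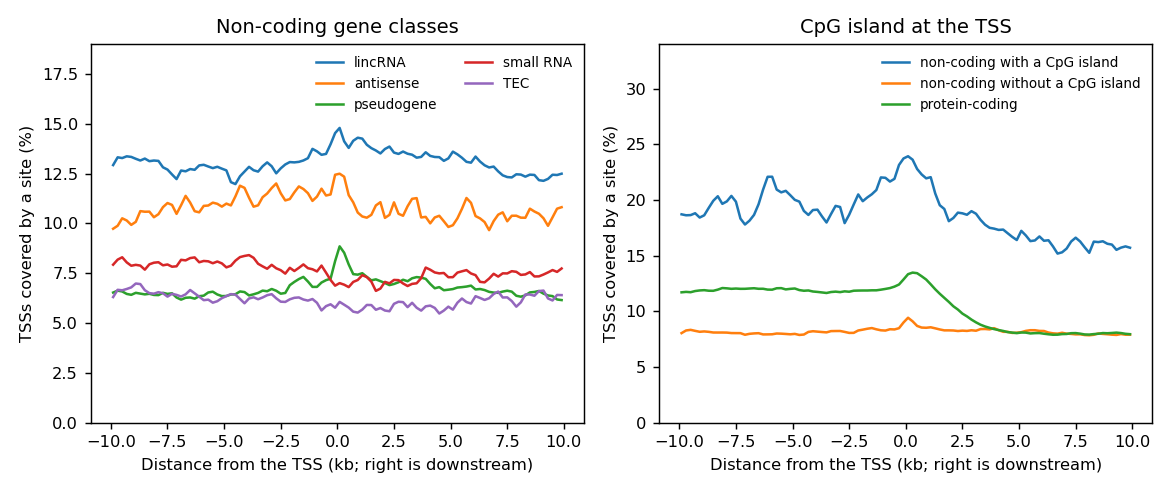
Share of TSSs covered by an H3K27me3 site (percent, vertical axis) in bins of 200 bp over 10 kb on either side of the TSS (horizontal axis, kb, downstream to the right), by gene class on the left and by presence of a CpG island on the right. Coverage of lincRNA TSSs is higher than that of the other classes over the whole window, with a maximum of 14.8% in the first bin downstream of the TSS, whereas the curves of small RNA and TEC genes have no maximum at the TSS.

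Of the selected sites, 1779 (44.7%, 43.2 to 46.3) covered the nearest non-coding TSS itself, 1060 (26.7%) lay upstream of it only and 1137 (28.6%) downstream only, on the strand of the gene. The share covering the TSS rose with width, from 18.3% of sites under 500 bp to 84.5% of sites of 5 kb or more, since a wider site covers a given point more readily. By class it was 49.8% at antisense, 48.7% at lincRNA, 45.8% at pseudogene and 33.4% at small RNA genes, the last with an interval (29.5 to 37.5) that did not reach those of the other 3. Nor did it reach that of other long non-coding genes (46.1%, 38.4 to 54.0). It overlapped those of TEC genes (40.0%, 34.1 to 46.2) and immune receptor segments (35.7%, 20.7 to 54.2).

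In base composition the sites resembled sites away from promoters much more than sites at protein-coding promoters. The median GC content was 47.9%, against 47.6% away from promoters and 50.2% at protein-coding promoters. The median CpG observed/expected ratio (the number of CpGs relative to that given by the C and G content) was 0.199, against 0.177 and 0.259. A CpG island was overlapped by 127 sites (3.19%, 2.69 to 3.79), by 30.3% of those at protein-coding promoters, by 0.332% of those away from promoters, and by 3.53% of all sites. The share at non-coding promoters thus lay near that of all sites. Of the 3395 sites with an island over all sites, 2079 were sites under 10 kb at protein-coding promoters. Wide sites overlap islands more easily, but the order of the groups was kept at every width, from 0.710% against 6.82% and 0.0748% for widths of 200 to 500 bp to 7.75% against 52.4% and 2.43% for 5 to 10 kb (non-coding promoters against protein-coding promoters and away from promoters). By class the share ran from 3.16% at small RNA genes to 6.29% at other long non-coding genes, with overlapping intervals, and none of the 28 sites at immune receptor segments had an island. At the other end, 100 sites contained no CpG at all, with a median width of 285.5 bp.

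**Figure D3:**
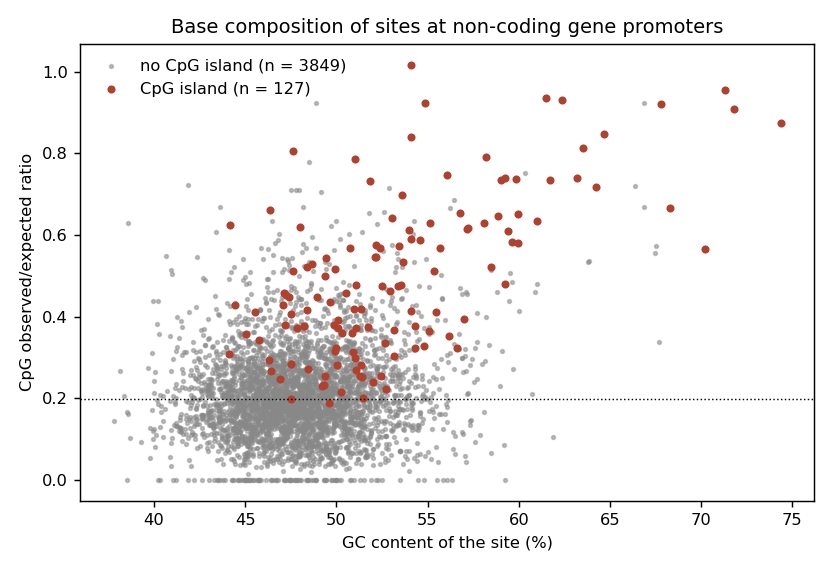
GC content (percent, horizontal axis) and CpG observed/expected ratio (vertical axis) of each of the 3976 sites at non-coding gene promoters; red points overlap a CpG island (n = 127), grey points do not (n = 3849), and the dotted line is the median ratio of 0.199. The grey points form 1 dense group below a ratio of about 0.4, from which the red points extend to high GC content and high ratios.

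The 127 sites with a CpG island differed from the others in width and position. Their median width was 2776 bp, against 985 bp for the 3849 without an island, and 102 of them (80.3%, 72.6 to 86.3) covered the TSS, against 43.6%. The share covering the TSS also rose with width over all selected sites, from 18.3% under 500 bp to 84.5% from 5000 bp up. Whether sites with an island differed in position from others of equal width was not tested. Among sites of at least 500 bp, the 10 with the highest CpG ratios all overlapped an island, and 8 of them covered the nearest TSS. Islands are defined in part by a minimum CpG ratio, so their overlap largely follows from this ranking. At the top stood Gm11837, an antisense RNA gene at chr4:14930149-14931068, with a ratio of 0.96 and 71.3% GC. It was followed by the processed pseudogene Gm42627 (0.93), Smarca5-ps (0.93), a transcribed processed pseudogene of the nucleosome remodeller gene Smarca5, and A730035I17Rik (0.92), which lies antisense within Prdm8 at chr5:98185683-98186961. The others were Gm13244 (0.91), 1600017P15Rik (0.85), 4933427G23Rik (0.84), Gm9762 (0.81), Gm336 (0.81) and the predicted miRNA Gm25911 (0.79). Pseudogenes made up 6 of these 10, 58 of the 127 sites with an island and 43.0% of all selected sites.

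The 10 widest sites measured between 9792 and 9998 bp, and 3 of them overlapped an island. The widest lay at the predicted miRNA Gm23844 (9998 bp, near Synm), followed by the lincRNA gene 1700063H04Rik (9928 bp), the pseudogene Adgrd2-ps with Gm13587 (9908 bp) and the lincRNA gene 4930555O08Rik (9898 bp). A site of 9893 bp spanned the pseudogenes AC134908.1, AC134908.3 and AC134908.5. The remaining 5 lay at Gm14317, Gm32850 with Gm45056, Gm6185, Gm41168 and 6330420H09Rik with Gm45241. Just beyond the limit, and therefore not selected, were sites at Gm48140 (10010 bp), Gm11611 (10041 bp) and D230030E09Rik (10064 bp). Likewise the sites closest to the distance limit were those at 4930442G15Rik (3001 bp from a protein-coding TSS), Gm43584 (3009 bp) and Gm16291 (3026 bp) on the inside and Gm12214 (2997 bp), Gm47762 (2994 bp) and Gm42966 (2984 bp) on the outside.

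Sites often had close neighbours, to about the same degree as sites away from promoters. Another site lay less than 1 kb away from 2835 of them (71.3%), with a median gap of 477 bp, compared with 5494 of 7741 and a median gap of 500 bp in sites away from promoters taken at regular steps along the list. A site of 10 kb or more lay within 10 kb of 9.68% and 9.61%, respectively. Accordingly 868 genes had 2 or more selected sites, 751 of them exactly 2. The highest number was 5, at 1810053B23Rik (231 to 1744 bp wide, chromosome 16) and at the lincRNA gene 2600014E21Rik (1045 to 1954 bp, chromosome 2). Each of several alternative TSSs of a gene could contribute a site to such counts.

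Most sites were outside protein-coding genes. The centre lay outside them in 81.1%, in an intron in 17.2% and in an exon in 1.69%. It lay outside in 66.5% of sites away from promoters, which are also over 3 kb from protein-coding TSSs, and in 62.2% of all sites. Part of this follows from the selection, since lincRNA genes are by definition intergenic and 96.5% of their site centres lay outside. At antisense genes, 172 of 285 site centres lay inside a protein-coding gene and 171 of these had the non-coding gene on the opposite strand, which is what the class name says. At small RNA genes 172 of 536 lay inside a protein-coding gene, 93 on the same strand as the small RNA and 79 on the opposite strand.

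The nearest protein-coding gene was marked at its own promoter in 2103 of 3976 cases (52.9%, 51.3 to 54.4), where marked means that a site of any width reached the 1 kb window of a TSS. The value exceeded the 26.9% of all protein-coding genes, but it lay below that of sites away from promoters (61.5%, 61.1 to 61.8). The lower share was found at each distance from the protein-coding TSS, from 61.4% against 70.9% at 3 to 10 kb to 42.2% against 49.4% at 100 to 300 kb, with intervals that did not overlap, and at over 300 kb (36.0% against 43.0%), where they did. It rose with the width of the site, from 47.9% under 500 bp to 65.9% (61.2 to 70.3) at 5 kb or more. Between classes it ranged from 75.7% at TEC genes and 62.9% at antisense genes to 49.3% at lincRNA genes, 49.1% at pseudogenes and 35.7% of the 28 sites at immune receptor segments. Sites with a CpG island had a marked neighbour less often, in 50 of 127 (39.4%, 31.3 to 48.1), than those without (53.3%, 51.8 to 54.9). Sites and genes cluster, so that several sites share a neighbour, and the intervals do not account for this.

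**Figure D4:**
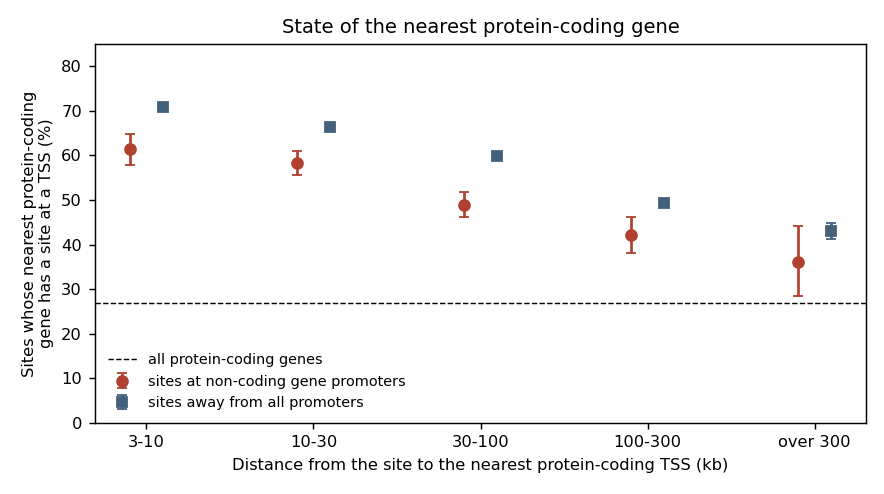
Share of sites whose nearest protein-coding gene has an H3K27me3 site within 1 kb of its own TSS (percent, vertical axis), by distance to that gene's TSS (kb, horizontal axis), for sites at non-coding gene promoters (circles) and sites away from all promoters (squares), with 95% Wilson intervals; the dashed line is the share of all protein-coding genes (26.9%). Circles lie below squares in every distance group and above the dashed line.

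Among microRNAs, several genes known from neurons are described here. They were chosen after their sites were seen, and their sites ranged from 297 to 8759 bp. Mir9-1, a locus of miR-9, which acts in neural progenitors, lay in a site of 8759 bp with an island. Mir137 lay in a site of 6431 bp with an island (chr3:118429821-118436251), and the window shown above contains both of its mature sequences. Mir124a-2, a locus of miR-124, which is abundant in neurons, lay in a site of 4687 bp, and the start of its host gene Mir124-2hg in the adjacent one of 6824 bp, both with an island. Mir129-2 shared a site of 4171 bp with Mir129b and with the window of a start of the host gene Mir670hg, also with an island. These 5 sites covered the hairpin or start concerned, and except for Mir9-1 their nearest protein-coding genes (Dpyd, Cypt12 and Hsd17b12) were unmarked and 80905 to 156516 bp away.

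Others had narrower sites. Mir9-2 lay in a site of 1713 bp without an island and Mir128-2, in an intron of Arpp21, in one of 2605 bp. The pair Mir132 and Mir212 had a single site of 297 bp downstream of both hairpins, overlapping a CpG island, at 4319 bp from an unmarked Hic1 promoter. Mir129-1 had a site of 429 bp that ended before the hairpin, and that of Mir138-1 (3341 bp) began 837 bp after the start of its hairpin. Thus loci encoding the same mature sequence differed in the width and position of their sites. In all, 82 of the 162 microRNA genes had a site over the start of the hairpin and 17 had a site with an island. For 46 the centre of a site lay inside a protein-coding gene. The 87 genes with a Gm symbol are mostly predictions. Over all 2054 annotated miRNA genes, 291 had a site of any kind, and among those far from protein-coding TSSs the share (14.1%) was close to that of all non-coding genes (14.9%).

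The sites with the most non-coding genes were in the imprinted Dlk1 to Dio3 region of chromosome 12, where the non-coding RNAs Meg3, Rian and Mirg are expressed from the maternal chromosome and Mirg carries a large microRNA cluster. The site at chr12:109710521-109712074 (1554 bp) touched the windows of 8 genes (Gm25750, Mir1197, Mir299a, Mir299b, Mir323, Mir380, Mir411 and Mir758). The one at chr12:109730178-109735009 (4832 bp) touched 7 (Mir134, Mir382, Mir453, Mir485, Mir544, Mir668 and Mirg). Between Dlk1 and the end of Mirg, 19 of 66 annotated microRNA genes had a site, all among the 43 that lie from 1 kb before the first site onwards, of which 24 had none. Upstream there was none over 336.7 kb, from before Dlk1 through Meg3, Rtl1 and Rian to a point 19.2 kb before the start of Mirg. Within Mirg, 4 sites covered 31.7% of the gene, and a further 75 sites followed between its end and Dio3. The list does not distinguish the maternal from the paternal chromosome.

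**Figure D5:**
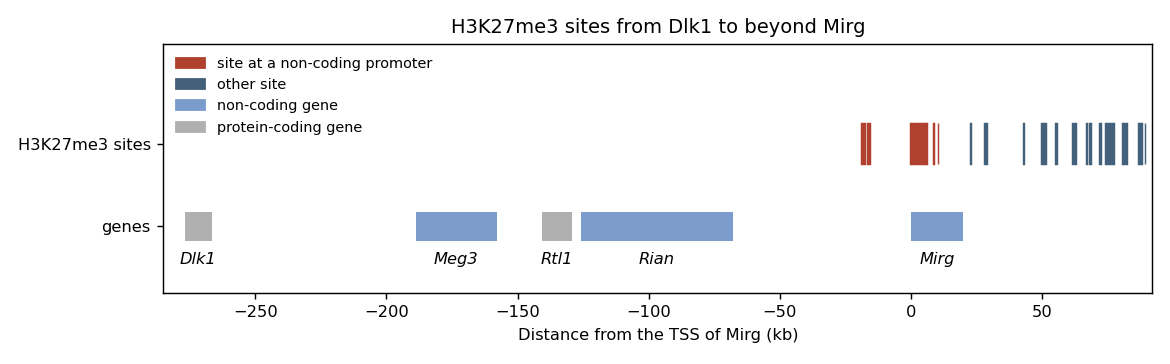
Map of H3K27me3 sites (upper row) and genes (lower row) along chromosome 12 from Dlk1 to beyond Mirg, as distance from the TSS of Mirg (kb); red sites are at non-coding gene promoters, dark blue sites are not. No site lies over Dlk1, Meg3, Rtl1 or Rian, and the sites begin 19.2 kb before the start of Mirg.

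At a second imprinted locus, a site of 1627 bp covered the start of H19, the maternally expressed lincRNA gene that also contains Mir675, and one of 5156 bp covered the start of Nctc1, a non-coding gene near the enhancers of the Igf2 and H19 locus. In all, 4 of 12 annotated genes of a list of imprinted non-coding RNAs had a selected site (Mirg, H19, Mir675 and Nctc1), compared with 10.7% of all non-coding genes, and H19 and Mir675 share theirs. Nespas had sites near protein-coding TSSs only. No site was found at Meg3, Rian, Kcnq1ot1, Airn, Peg13, Snhg14 or A330076H08Rik. Kcnq1ot1 and Airn are known for directing Polycomb to neighbouring genes in the placenta, and their own starts had no site here.

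Of 31 long non-coding genes next to developmental regulators that were annotated, 22 had a site and 4 had a selected one. Of all 30422 non-coding genes 16.1% had a site and 10.7% a selected one, but these genes mostly lie farther from protein-coding TSSs than those of the list. Of the 12 gene entries over 4 kb from protein-coding TSSs, 6 had a site of any width (14.9% of all such genes). At the remaining 18 the sites lay within 3 kb of a protein-coding TSS and were often very broad, such as the 228257 bp over Hotair in the HoxC cluster and the 63228 bp over Fendrr beside Foxf1. Among the 4, Sox2ot, the long transcript around Sox2, had 4 selected sites of 323 to 7070 bp, which included its first start. Wt1os had 2 (1537 and 866 bp) and Tbx3os1 had 3 (898, 344 and 915 bp), and the protein-coding genes nearest to these sites, Gm11060 for Wt1os and Tbx3 for Tbx3os1, were unmarked. Wt1os had 2 further, wider sites that the rule did not take. Gm11060 is not the regulator gene Wt1, and whether Wt1 itself was marked is not given here. For Nkx2-2os the site of 1455 bp lay at a separate short entry of that name, a conserved RNA segment, whereas the long antisense gene had a site near protein-coding TSSs. Hand2os1, which lies beside the heart regulator gene Hand2 and held the median-width site of the processed transcripts, had 3 (946, 1195 and 4945 bp), with Hand2 itself marked. Sfta3-ps, a pseudogene next to the lung and thyroid regulator gene Nkx2-1, had 4 of 203 to 3389 bp, and Nkx2-1 was marked as well.

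The next lists held genes of other kinds. Of 23 annotated genes that host snoRNAs or encode RNAs found in nearly all cells, such as Gas5, Malat1, Neat1, Rn7sk and Terc, 3 had a site of any kind (Snhg3 with 593 bp, Rpph1 with 208 bp and Snhg18 with 1674 bp), each near a protein-coding TSS, and none had a selected site. Of these, 13 gene entries lay over 4 kb from protein-coding TSSs and 0 had a site, beside 14.9% of all such genes. Of 11 genes linked to the cell cycle, senescence or p53, among them Mir34a, Pvt1 and Trp53cor1, Miat had a site, of 12328 bp and thus too wide to be selected. That is 1 of the 7 over 4 kb from protein-coding TSSs (14.3%), near the share of all such genes. Of 266 ribosomal protein pseudogenes, 35 had a selected site, the widest of which lay at Rpl13-ps6 (9735 bp). Of those over 4 kb from protein-coding TSSs 16.0% had a site, near the 14.9% of all tested non-coding genes. Of 11 annotated microRNA host genes, Mir124-2hg and Mir670hg had a selected site, compared with 10.7% of all non-coding genes. Mir124a-1hg and Mir9-3hg had broader ones of 29535 and 144340 bp. Of the 10 host genes over 4 kb from protein-coding TSSs, 4 had a site, beside 14.9% of all such genes. No test was made of these small counts.

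A few groups reflected the annotation more than single promoters. The joining segments Igkj1 to Igkj5 of the kappa light chain locus shared 2 sites (975 and 1276 bp), since all 5 lie within the 1 kb windows of each other's sites. A site of 7745 bp on chromosome 10 spanned 4 genes, Gm48448, Gm48450, Gm48451 and Gm48454. Across chromosomes the selected sites made up from 3.31% of the sites of chromosome 1 to 5.41% of those of chromosome 14, and their density ran from 1.03 per Mb on chromosome 16 to 2.39 per Mb on chromosome 9.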

How the data were processed

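The authors sequenced H3K27me3 ChIP DNA from 8 libraries and input DNA from 4. By the study's methods reads were trimmed (Trim Galore), mapped with BWA to mm10 (GRCm38.p6, GENCODE release M25), filtered (SAMtools) and merged over replicates (Picard), libraries were scaled to the lowest coverage, and broad peaks were called with MACS2, named as such in the submitters' processing notes. Versions, cutoffs and the rule joining peaks of different samples are not given in the sources used here. The deposited list holds the positions of 101389 sites, pooled over all samples, and no count, score or library column (0 columns of samples left unused). Depth per sample is therefore unknown, and no comparison of groups and no test was made.

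Starts were read as counted from 0, because the smallest difference of end and start was then 200 bp, and positions are printed counted from 1. Sites on chromosome X (5215) and on scaffolds (84) were left out by the selection. TSSs came from GENCODE release M21 on the same assembly, and sequences from RefSeq GRCm38.p6. CpG islands were maximal segments under a score of 17 per CpG and -1 elsewhere, with a minimum length of 200 bp, GC content of 50% and observed/expected ratio of 0.6, in repeat-masked sequence (15648 islands). Intervals of shares are 95% Wilson intervals, and those of medians come from order statistics.

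The rule for the sites and the gene lists were chosen with earlier results of these data known. Named genes were those at the 10 widest sites, the 10 sites of at least 500 bp with the highest CpG ratio, the 5 sites with the most genes, the 5 genes with the most sites, sites beside the limits, median-width sites of each gene type with 20 sites or more, and members of 6 gene lists (developmental, imprinted, microRNA and host, broadly expressed, cell cycle and p53, ribosomal protein pseudogenes). Of these, the few of most use to a reader are named, and Sfta3-ps was added after its sites were seen. Computations used Python 3.11.15, numpy 2.4.6, pandas 2.3.3, scipy 1.17.1 and pysam 0.24.0, and were tested on simulated data.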

Additional observations from a re-analysis of the deposited data

How the results depend on the processing

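No paired analysis was possible because the list holds no value for any library, and no replicate could be left out. The number of sites at non-coding promoters was 6200 with windows of 2 kb, 2603 when the centre had to lie in the window, 2102 without pseudogenes and TEC genes, 2013 for sites of at least 1000 bp and 2427 after merging sites under 1000 bp apart. It stayed within 1.5 times of 3976 for the other 4 alternatives. With windows of 500 bp the median width was 1289 bp, the share with a CpG island 4.46%, the CpG ratio 0.207 and the share covering the TSS 63.0%. For sites of at least 1000 bp these were 2593 bp, 5.12%, 0.208 and 64.1%, with a GC content of 47.2%. After merging they were 2135 bp in width, 0.203 in CpG ratio, 54.2% covering the TSS and 47.1% GC. Without pseudogenes and TEC genes the width was 1118 bp and the GC content 48.2%. A marked nearest protein-coding gene was found for 48.0% of merged sites and 50.9% of sites over 10 kb from protein-coding TSSs, below the share of sites away from promoters under each of the 6 alternatives. The GC content was above that of sites away from promoters except after merging. With windows of 500 bp, 12.7% of tested non-coding genes had a site (pseudogenes 11.96%, lincRNA 18.4%, small RNA 10.3%, TEC 8.27%). Counting only sites of at least 1000 bp, the share was 10.1% (pseudogenes 8.61%, lincRNA 15.4%, small RNA 8.83%, antisense 14.0%, TEC 6.93%). Among these 5 classes lincRNA was highest and TEC lowest in both, whereas pseudogenes and small RNA changed order for sites of at least 1000 bp. With 1 TSS a gene, chosen after seeing the data, no share of the 5 classes left its interval. The cause was not tested beyond the construction of the alternatives.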
